A study of Mus musculus with 27 samples.

Results

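Organoids grown from Mist1-lineage cells of the mouse stomach were compared at passage 15 and passage 10, without a knockout. The 6 libraries were chosen by their titles, 3 at each passage, from 27 libraries in the series, of which 21 have columns in the deposited count table. Per the labels, the cells were RFP+ cells sorted from the stomach of adult Mist1Cre/ERT2;RFPLSL mice, genotype WT. They were grown as organoids in Matrigel, a basement membrane gel, in a proliferative medium. Both passages carry the Cre and reporter alleles, and they differ in the labels by passage alone. The organoids labelled Gpx4 KO, from Gpx4F/F;Mist1Cre/ERT2;RFPLSL mice, have 3 libraries at passage 10 and 3 at passage 15 and serve below for comparison. The labels give no mouse, culture or clone for a library, so the p-values measure the spread between these libraries, which may be technical.

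Bhlha15 encodes Mist1, a basic helix-loop-helix factor found in cells that secrete proteins. In the corpus of the stomach it marks the pepsinogen-secreting chief cells at the gland base and rarer cells in the isthmus, the proliferative zone of the gland. The corpus epithelium also holds mucus-secreting pit cells at the surface, mucous neck cells and acid-secreting parietal cells. Intestinal genes such as Cdx2 are normally silent in it and are expressed in intestinal metaplasia.

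The 6 libraries held 14076706 to 19608956 counts. The 3 passage 15 libraries were far less alike than the 3 passage 10 libraries. The biological coefficient of variation, the spread between replicates beyond counting error, was 20.8% at passage 15 and 2.28% at passage 10. Passage 15 replicates 1 and 2 differed by 2-fold or more in 774 of 10428 genes (7.42%), against at most 1 gene for any pair at passage 10. Replicate 3 lay between the other 2 in 765 of those 774 genes. The difference followed gene length. Genes with exons under 1 kb had a median log2 ratio to the passage 10 mean of 0.85 in replicate 1, 0.07 in replicate 2 and 0.35 in replicate 3. Genes with exons over 8 kb had -0.62, -0.03 and -0.30. Each result below was therefore recomputed with replicate 2 as the only passage 15 library, and with a length trend removed from each library. A call is said to hold where the gene was also called, in the same direction, in both of those fits. With 1 passage 15 library, that library is assumed to vary like those of passage 10. Replicate 2 is also part of the fit on all 6 libraries, so a call that holds is not an independent result.

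**Figure D1:**
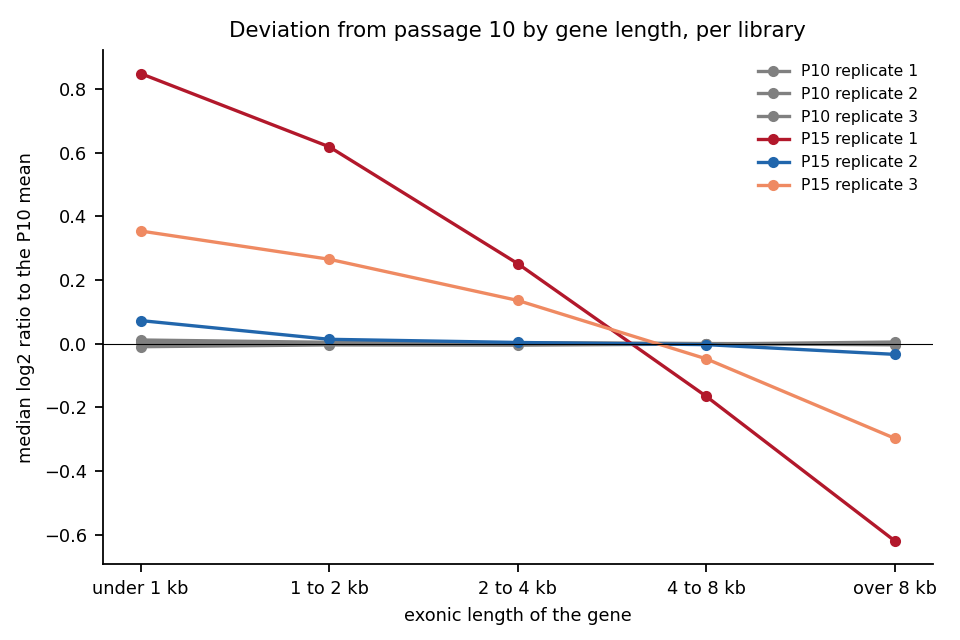
Median log2 ratio of each library to the passage 10 mean (vertical axis) for genes in 5 classes of exonic length (horizontal axis), 1 line per library. Passage 15 replicate 1 runs from 0.85 for the shortest genes to -0.62 for the longest, replicate 3 from 0.35 to -0.30, and replicate 2 stays near 0.

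Levels are given as CPM, the counts of a gene per 1e6 counts of the library, scaled by TMM over the 21 libraries. Differences are log2 fold changes of passage 15 over passage 10 ± SE from edgeR's quasi-likelihood test on the 6 libraries, with Benjamini-Hochberg adjusted p over all 13908 genes tested and a threshold of 0.05. Between the passages 3972 genes were called (28.6%). Of these, 2002 rose (14.4% of genes tested) and 1970 fell (14.2%), and 1323 changed by 2-fold or more, 470 higher and 853 lower. Libraries of the 2 passages did not overlap for 7307 genes (52.5%). The call held for 3383 genes (24.3% of those tested), 1660 higher and 1723 lower, and 3 called genes had the opposite sign in replicate 2 alone. Of all called genes 85.2% held, the share against which held calls in a list are to be read. With libraries scaled by their totals alone, 63.5% of called genes were higher, against 50.4% under TMM. The count of calls depended on which libraries entered. It was 1595, 1574 and 1584 without passage 10 replicate 1, 2 and 3, 5413 and 7249 without passage 15 replicate 1 and 2, and 1744 without passage 15 replicate 3. Without passage 15 replicate 2, 2086 genes changed by 2-fold or more. The fits without a passage 10 library or without passage 15 replicate 3, which made fewer calls, are called the 4 smaller fits below. They called 596 to 752 genes higher and 959 to 992 lower, of 14214 to 14282 genes tested. Counts in a list are to be read against all genes in the same fit. Replicate 2 as the only passage 15 library gave 6487 calls among 14926 genes (43.5%), 21.3% higher and 22.2% lower. The fits without passage 15 replicate 1 or 2 made more calls in most lists. Without passage 15 replicate 2, 3608 genes rose and 3641 fell of 14236 tested. Of 13908 genes, 2796 rose and 1609 fell with library totals alone, and 2523 rose and 2605 fell with the length trend removed.

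**Figure D2:**
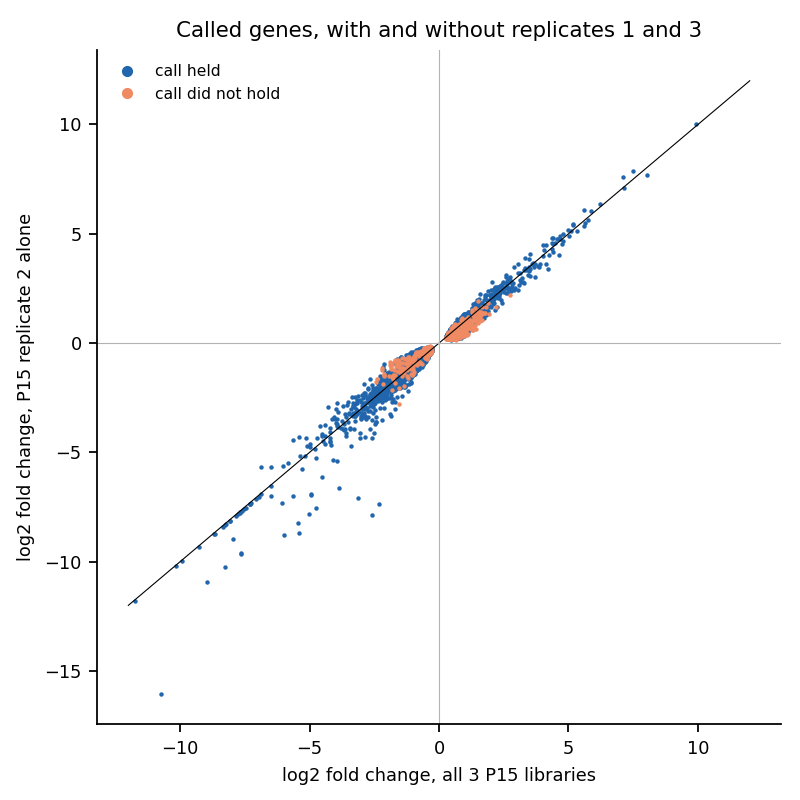
Log2 fold change of each called gene with all 3 passage 15 libraries (horizontal axis) against passage 15 replicate 2 alone (vertical axis), 1 point per gene, with the line of equality. Blue points are the 3383 genes whose call held. The 589 genes whose call did not hold had a median absolute log2 fold change of 0.641 with all libraries and 0.441 in replicate 2 alone, and 177 of them changed by 2-fold or more with all libraries.

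The labelled cell type was checked against its markers. Chief cell enzyme genes Pga5, Lipf and Chia1 had 0 counts in all 6 libraries. Fibroblast markers summed to at most 0.432 CPM in any library, with Col1a2, Col3a1, Dcn and Lum at 0 in all 6. Endothelial markers summed to 1.38 to 1.44 CPM at passage 10 and 0.144 to 0.354 CPM at passage 15, and immune markers to 7.79 to 8.68 and 7.02 to 12.2 CPM. Of 9 enteroendocrine markers, 5 were at 0 in all 6 libraries (Chga, Sst, Gast, Neurod1 and Tph1).

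Genes of the surface pit cell fell together. All 10 pit cell genes listed were tested and all 10 fell, against 14.2% of all genes tested. The gene lists were chosen with earlier results of these data known. Counts of list members, here and below, are therefore a description. The call held for the 10, and 9 or 10 fell in each of the 4 smaller fits. Their median log2 fold change was -1.97, and -2.20 in replicate 2 alone, against 0.02 and 0.00 for all genes tested. Their summed level went from 9955 to 10160 CPM at passage 10 to 2348 to 3285 CPM at passage 15. In bulk libraries, fewer cells of a type and less RNA per cell cannot be told apart.

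Mucl3 encodes a mucin-like membrane protein. Its level was 328, 325 and 327 CPM at passage 10, then 28.4, 26.7 and 29.9 CPM at passage 15. The libraries of the 2 passages did not overlap, and the log2 fold change was -3.51 ± 0.10 (adjusted p = 6.16e-06, edgeR). Muc5ac, the main secreted mucin of pit cells, had 279, 284 and 284 CPM against 26.0, 36.9 and 23.2 CPM, a log2 fold change of -3.28 ± 0.18 (adjusted p = 3.58e-05). Gkn2, a gastrokine secreted by pit cells, had 1933, 1835 and 1876 CPM at passage 10. At passage 15 it had 277, 185 and 227 CPM, 8.09-fold lower (adjusted p = 3.67e-05). Ctse, the aspartic protease cathepsin E, had 330, 339 and 318 CPM against 122, 117 and 120 CPM, a fall of 1.44 ± 0.09 on the log2 scale (decreased by 1.48 in replicate 2 alone). For each of these 4 genes, named for the smallest adjusted p of the list, all passage 15 libraries lay below all passage 10 libraries. Over all genes tested, libraries of the 2 passages did not overlap for 52.5%. At passage 5 their mean levels were 266 CPM for Mucl3, 164 for Muc5ac, 1258 for Gkn2 and 371 for Ctse. The other 6 genes, Gkn1, Tff1, Psca, Capn8, Anxa10 and Muc1, had log2 fold changes from -2.86 for Gkn1 to -0.81 for Muc1.

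**Figure D3:**
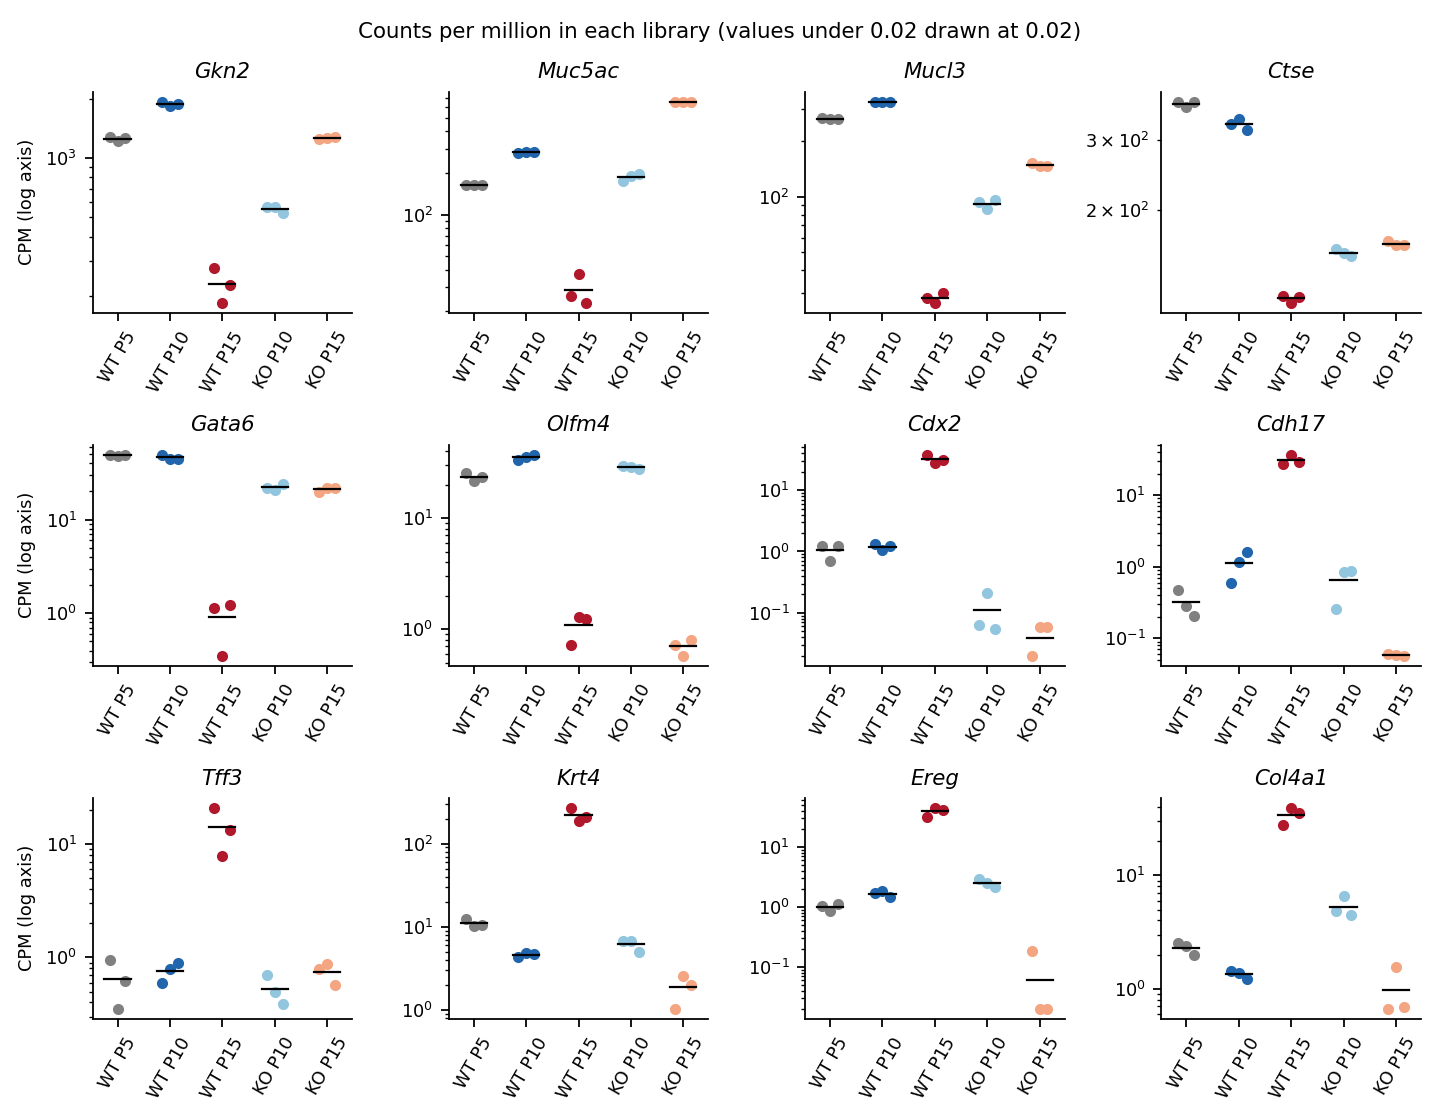
Level of 12 genes in CPM (vertical axes, logarithmic) in each library of wild type at passages 5, 10 and 15 and of the organoids labelled Gpx4 KO at passages 10 and 15, with black bars at the means. The 4 pit cell genes of the top row and Gata6 are lowest in wild type at passage 15, and Olfm4 is low at passage 15 in both genotypes. In wild type, Cdx2, Cdh17, Tff3, Krt4, Ereg and Col4a1 are higher at passage 15 than at passage 10.

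Markers of the deeper gland were mixed. Of 4 tested chief cell genes 3 fell, against 14.2% of all genes, and in the 4 smaller fits as well. Xbp1 was not called (log2 fold change -0.23 ± 0.09). Bhlha15, the Mist1 gene itself, had 7.13, 6.59 and 6.81 CPM at passage 10, then 3.02, 2.06 and 2.89 CPM at passage 15. It fell by 1.35 ± 0.18 on the log2 scale (adjusted p = 0.00224), and by 1.72 in replicate 2 alone. Pgc, the pepsinogen C gene, had 21.2, 21.9 and 22.4 CPM against 7.77, 7.95 and 7.51 CPM. Rab3d, a small GTPase of secretory granules, fell 1.91-fold. With Pga5, Lipf and Chia1 at 0 counts, the chief cell list rests on few genes.

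Among 9 tested genes of mucous neck cells and spasmolytic polypeptide-expressing metaplasia (SPEM), 2 rose and 3 fell, against 14.4% and 14.2% of all genes. Aqp5, a water channel, had 7.55, 6.85 and 7.23 CPM against 36.8, 20.0 and 23.3 CPM, 3.74-fold higher. Cftr, the chloride channel, rose 2.51-fold. Clu, a secreted chaperone, had 14190, 14380 and 14100 CPM at passage 10, then 8264, 5702 and 6526 CPM at passage 15. It fell 2.06-fold, and Gkn3 fell 3.24-fold. Sox9 also fell, by 0.36 on the log2 scale, and is named here after its values were seen, as the fifth called gene. Replicate 2 was the highest of the passage 15 libraries for Cftr and the lowest for Aqp5 and Clu.

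Of 4 tested parietal cell genes, Slc9a4, a sodium-proton exchanger, fell from 464, 468 and 465 CPM to 160, 207 and 179 CPM (log2 fold change -1.34 ± 0.11). Ckb fell by 1.32 ± 0.35 and Atp4a, the proton pump, rose by 0.89 ± 0.22, both from levels of 1 to 4 CPM. In each of the 4 smaller fits both lost the call, with adjusted p of 0.0702 to 0.109 for Ckb and 0.0735 to 0.106 for Atp4a. Atp4a was also not called in replicate 2 alone (adjusted p = 0.163).

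Of 10 tested stem and isthmus genes, 3 rose and 2 fell, against 14.4% and 14.2% of all genes. In the 4 smaller fits 1 or 2 rose and at most 1 fell. Tnfrsf19 (Troy), a receptor and Wnt target, had 1.80, 2.22 and 3.85 CPM against 15.3, 15.4 and 15.8 CPM. Its log2 fold change was 2.56 ± 0.25 (adjusted p = 0.000517). Lgr4, an R-spondin receptor, fell by 0.80 ± 0.17, with adjusted p of 0.0537 to 0.0584 in the 4 smaller fits. Runx1, which fell by 0.52 with all libraries, and Ascl2, which rose by 1.43, did not hold. Runx1 had adjusted p of 0.0503, 0.0548 and 0.0506 without passage 10 replicate 1, passage 10 replicate 3 and passage 15 replicate 3. Ascl2 had 0.0819, 0.0846 and 0.0720 without passage 10 replicate 2, passage 10 replicate 3 and passage 15 replicate 3. Stmn1, named after its values were seen, rose by 0.68. Lgr5 and Sox2 were not called, at 0.59 and 0.22.

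Of the tuft cell list 3 genes were tested. Avil, an actin-binding protein, fell from 205, 197 and 206 CPM to 64.6, 51.9 and 50.4 CPM (log2 fold change -1.85 ± 0.12). Dclk1, a kinase and tuft cell marker, had 3 counts in all at passage 10 and 0.791, 1.06 and 1.85 CPM at passage 15. Its ratio was 21.3, with a 95% counting interval of 6.93 to 106. Trpm5 was not called, at -0.84 ± 0.39.

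Intestinal genes moved in both directions. Of 8 tested, 4 rose and 3 fell, against 14.4% and 14.2% of all genes. All 7 calls held, and 3 rose and 3 fell in each of the 4 smaller fits. Cdx2, the transcription factor of intestinal identity, had 1.32, 1.04 and 1.21 CPM at passage 10. It had 37.7, 27.6 and 30.7 CPM at passage 15, a log2 fold change of 4.75 ± 0.19 (adjusted p = 1.08e-05). Cdh17, an intestinal cadherin, went from 0.5995, 1.17 and 1.58 CPM to 27.1, 36.5 and 29.1 CPM, 27.5-fold higher. Both were low at passage 5 as well, with means of 1.05 and 0.321 CPM.

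Tff3, the intestinal trefoil factor, had 0.5995, 0.783 and 0.898 CPM against 20.9, 7.90 and 13.3 CPM. The passage 15 libraries differed among themselves by more than 2-fold but all lay above passage 10 (log2 fold change 4.20 ± 0.44, and 3.37 in replicate 2 alone). Olfm4, an intestinal stem cell gene, moved the other way. It had 33.6, 35.1 and 37.1 CPM against 0.720, 1.30 and 1.23 CPM, a log2 fold change of -4.98 ± 0.19 (adjusted p = 1.08e-05). Muc2, Vil1 and Krt20, outside the 4 smallest p-values and named after their values were seen, had log2 fold changes of 2.03, -0.74 and -0.63.

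Krt4, a keratin of stratified squamous epithelium such as the forestomach, had 4.32, 4.76 and 4.75 CPM at passage 10, then 269, 187 and 211 CPM at passage 15. It rose 48.8-fold (log2 fold change 5.61 ± 0.19, adjusted p = 1.01e-05). Trp63, a marker of basal squamous cells, and Sprr3, a cornified envelope gene, were at 0 in all 6 libraries, and Krt5, Krt14, Krt13 and Krt6a were below the count filter. Sprr1a, a cornified envelope protein, fell 3.07-fold. Ivl rose by 0.50 with all libraries, but its call did not hold, and adjusted p was 0.104 to 0.158 in the 4 smaller fits. Upk1b, a uroplakin of bladder epithelium, had 0.540, 0.131 and 0.211 CPM against 15.9, 13.4 and 14.8 CPM, a log2 fold change of 5.62 ± 0.31.

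The strongest changes were near all-or-none. Of protein-coding genes with a mean of at least 5 CPM in the higher group, 12 genes of each direction were taken by the smaller of the fitted and the replicate 2 difference, from 187 eligible higher and 386 eligible lower genes. The rule chose large differences in the fit and in replicate 2 and libraries that did not overlap, so these values are a description. Adjusted p was at most 0.000104, and at most 0.00213 when any 1 library was left out.

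Transcription factor genes were among the 12 that fell furthest. Gata6, a factor of gastric and other endodermal epithelium, had 49.0, 44.7 and 44.6 CPM at passage 10. It had 1.15, 0.354 and 1.23 CPM at passage 15, 50.5-fold lower (log2 fold change -5.66 ± 0.29). Gata6os, a transcript from the opposite strand whose 5′ end overlaps that of Gata6, had 5.40, 4.44 and 4.22 CPM and then 0 counts, at least 73.3-fold lower. Reads in the overlap cannot be assigned to 1 of the pair, because the strand setting of the counting is not given in the sources used here.

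Irx5, an Iroquois homeobox gene, had 7.13, 7.76 and 7.29 CPM at passage 10 and 0 counts in all 3 passage 15 libraries, at least 116-fold lower. Tfap2a, the factor AP-2 alpha, had 5.82, 5.54 and 6.07 CPM and then 1 count in all, a ratio of 275 with a 95% counting interval of 48.9 to 10880. Zfp987, a zinc finger gene with close copies in its family, had 7.97, 9.20 and 8.98 CPM and then 0 counts, at least 137-fold lower. At passage 5 Gata6, Irx5, Tfap2a and Zfp987 had means of 48.5, 8.33, 5.88 and 9.08 CPM.

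The other 8 genes of the 12 included enzymes, a transporter and a clotting factor. Enpp3, a nucleotide pyrophosphatase of the cell surface, had 126, 125 and 121 CPM and then 0.863, 0.236 and 0.431 CPM, a log2 fold change of -7.94 ± 0.26. Slc28a3, a nucleoside transporter, had 41.1, 38.7 and 41.9 CPM and then 0.720, 1.12 and 1.42 CPM. Spock2, a proteoglycan, fell by 5.85 on the log2 scale, and Trim35, a ubiquitin ligase, from 74.0, 68.2 and 72.8 CPM to 2.23, 2.00 and 0.985 CPM. F5, coagulation factor V, had 1 count in all at passage 15, a ratio of 273 with an interval of 48.6 to 10810. Plbd1, a phospholipase B-like protein, fell by 6.50 ± 0.41.

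Lipo3, a lipase gene with near copies beside it, also had 1 count at passage 15 (ratio 421, interval 75.1 to 16650). H2-Q10, an MHC class Ib gene with many relatives, fell by 6.06 ± 0.29. Clec2f, a C-type lectin gene, had 26.7, 27.1 and 25.6 CPM and then 0 counts, at least 414-fold lower. Counts of these 3 genes are uncertain where reads were shared with their copies. Over all genes, 26 called genes had 0 counts in every passage 15 library and 6 had 0 counts in every passage 10 library.

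Ndn (necdin), an imprinted gene expressed from the paternal allele, on chromosome 7 at 62346569 to 62350262 (GRCm38, GENCODE M21), was highest in rank among the genes that rose. It had 4 counts in all at passage 10, and 26.3, 17.9 and 23.2 CPM at passage 15, a log2 fold change of 8.04 ± 0.42 (adjusted p = 2.76e-05). Bmp3, a ligand of the TGF-beta superfamily, had 0 counts at passage 10 and 7.48, 7.72 and 7.02 CPM at passage 15, at least 126-fold higher. Hunk, Synpr and Gm14139 also had 0 counts at passage 10 and were at least 23.4-fold, 18.0-fold and 18.0-fold higher. Il5ra, a subunit of the interleukin 5 receptor, went from 1.98, 1.83 and 2.90 CPM to 64.5, 99.8 and 80.7 CPM (log2 fold change 5.19 ± 0.24).

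Among the 12 genes that rose furthest, Mgat4c, an N-acetylglucosaminyltransferase family member, had 8.21, 9.20 and 7.13 CPM against 170, 220 and 227 CPM (25.5-fold). B4galt4, a galactosyltransferase, had 0.420, 0.913 and 0.422 CPM against 17.9, 19.7 and 21.2 CPM (34.3-fold). In GRCm38, B4galt4 lies on chromosome 16 at 38742264 to 38769049, next to Upk1b at 38773184 to 38800328, and both rose. Evc, a protein of the base of the primary cilium, rose by 5.74 ± 0.38 on the log2 scale.

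The 2 chains of the main collagen of basement membranes rose together. Col4a2 had 1.08, 1.63 and 1.64 CPM at passage 10, then 38.1, 51.8 and 46.1 CPM at passage 15 (log2 fold change 4.98 ± 0.20). Col4a1 had 1.44, 1.37 and 1.21 CPM against 27.8, 39.4 and 35.5 CPM (4.69 ± 0.19). They lie head to head on chromosome 8 (GRCm38), Col4a1 at 11198423 to 11312826 and Col4a2 at 11312805 to 11449287, with an overlap at their 5′ ends. Of the other 10 tested basement membrane and integrin genes none rose and 4 fell, against 14.2% of all genes. Among the 4 were Lamb3, Itga2 and Itgb6. Lamb3, a laminin chain of epithelial basement membranes, fell 2.08-fold and Itgb6, an integrin chain, 1.53-fold. Itga2 (log2 fold change -1.44) is named after its values were seen.

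Of 11 tested junction genes 5 rose, against 14.4% of all genes, all 5 calls held, and all 5 were claudins, which seal or open tight junctions. Of the 11, 3 or 4 rose in the 4 smaller fits, and with median ratio scaling 1 other gene of the list fell. With the length trend removed 5 rose and 2 fell. Cldn3 had 2.64, 1.89 and 1.85 CPM against 75.3, 34.8 and 47.0 CPM, a log2 fold change of 4.64 ± 0.35 (4.04 in replicate 2 alone). Cldn4 had 30.1, 28.5 and 32.3 CPM against 119, 94.6 and 113 CPM (3.62-fold). Cldn2, which forms pores for cations, rose 1.88-fold, and Cldn23 rose 1.82-fold with adjusted p of 0.0594 and 0.0522 without passage 10 replicate 2 and 3. Cldn7 rose by 0.66 and is named after its values were seen. Cldn18, the claudin of the stomach, was not called (-0.29).

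Of 17 genes of ligands, receptors and ERK targets, 3 rose and 1 fell, against 14.4% and 14.2% of all genes. Ereg (epiregulin) had 1.68, 1.83 and 1.48 CPM against 31.7, 44.9 and 41.6 CPM (24.0-fold). Areg (amphiregulin) had 34.5, 37.1 and 34.6 CPM against 121, 96.5 and 107 CPM (3.09-fold). Etv4, an ERK-induced transcription factor, rose by 0.84 ± 0.12. Erbb3, a receptor of the family, fell by 0.48 ± 0.14, and had adjusted p of 0.115 to 0.129 in the 4 smaller fits. The ligand genes Hbegf, Tgfa and Btc were not called, at -0.13, -0.24 and 0.24.

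Areg and Ereg are also in the list of YAP targets and regenerative genes. Of its 16 genes 6 rose and 3 fell, against 14.4% and 14.2% of all genes. In each of the 4 smaller fits 5 rose and 2 fell. Ccn2, a classical YAP target, had 111, 107 and 107 CPM against 261, 226 and 243 CPM, a log2 fold change of 1.19 ± 0.10. F3, tissue factor, fell 1.99-fold. Ccn1 and Ankrd1, other YAP targets, were not called, at 0.29 and -0.03.

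Of 13 Wnt targets 5 rose, against 14.4% of all genes, and none fell. In the 4 smaller fits 1 or 2 rose. With the length trend removed 8 rose and 2 fell, against 2523 and 2605 of 13908 genes. Without passage 15 replicate 2, 5 rose and 2 fell, against 3608 and 3641 of 14236 genes. The 5 that rose with all libraries included Tnfrsf19 and Ascl2 above. Myc rose by 0.49 ± 0.10 and Ephb3 by 0.50 ± 0.11. Myc lost the call in the 4 smaller fits (adjusted p of 0.0516 to 0.0716). Ephb3 lost it without passage 10 replicate 1 (0.0693) and replicate 3 (0.0781). Axin2, a direct feedback target of the pathway, was not called (-0.05). Ephb2 (0.39) is named after its values were seen.

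In the BMP pathway 3 of 8 genes fell, against 14.2% of all genes, and none rose. Bmp2, a ligand, had 46.8, 44.1 and 42.3 CPM against 10.9, 8.60 and 12.5 CPM, 4.11-fold lower (adjusted p = 0.000133). Id3, a BMP target, fell by 1.81 ± 0.31. Id1, another, fell by 0.65 ± 0.14, and lost the call without passage 10 replicate 1 (adjusted p = 0.0684), passage 10 replicate 3 (0.0541) or passage 15 replicate 3 (0.0656). Bmpr1a, a receptor, was not called (-0.36).

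Of 9 Notch pathway genes 2 rose, against 14.4% of all genes. The ligand Jag2 had 38.4, 34.4 and 38.6 CPM against 61.8, 67.3 and 63.2 CPM (1.75-fold). Notch3 rose by 0.66 ± 0.20 and had adjusted p of 0.0982 to 0.161 in the 4 smaller fits and 0.0553 without passage 15 replicate 2. With median ratio scaling 1 gene rose. Target gene Hes1 was not called (0.11).

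NF-kB dimers, released from their inhibitor by inflammatory signals, bind kB sites near the start of cytokine and chemokine genes and of their own inhibitors. Of 15 tested NF-kB and inflammatory genes 11 fell, against 14.2% of all genes, and 1 rose, against 14.4%. All 12 calls held, and 9 or 10 fell in each of the 4 smaller fits. Their median log2 fold change was -0.99, and -0.86 in replicate 2 alone. Immune cell markers were low at both passages, at most 12.2 CPM summed in a library.

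Of the 15 genes, 12 had a promoter window of 250 bases before the start site in RefSeq. The kB motif, read on both strands and overlaps allowed, was in a window of 6 of them, and of 8.23% of 27025 genes. Of the 9 with a window that fell 5 had it, and of the 3 that did not fall 1 had it. Some genes have more than 1 window. Over windows it was in 5 of 11 for genes that fell and in 3 of 5 for those that did not, against 7.25% of 32851 windows of all genes. The 100 bases before the start are shown for 4 genes that fell, with the kB match in capitals (GRCm38.p6, RefSeq, read 5′ to 3′ on the gene's strand). Overlapping matches are run together.
Cxcl1, chr5:90891145-90891244, plus strand: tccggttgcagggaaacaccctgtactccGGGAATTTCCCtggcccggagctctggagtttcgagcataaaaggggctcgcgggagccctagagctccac
Cxcl2, chr5:90903799-90903898, plus strand: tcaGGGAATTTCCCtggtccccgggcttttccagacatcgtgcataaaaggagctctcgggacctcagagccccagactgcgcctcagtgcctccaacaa
Ccl20, chr1:83116666-83116765, plus strand: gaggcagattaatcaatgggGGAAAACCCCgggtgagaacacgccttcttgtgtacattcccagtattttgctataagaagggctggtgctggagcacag
Nfkbia, chr12:55492648-55492747, minus strand: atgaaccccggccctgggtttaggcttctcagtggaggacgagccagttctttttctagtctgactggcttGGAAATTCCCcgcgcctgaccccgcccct
A match is a description of the letters, not a bound site. The 4 genes shown were chosen after their values were seen. Nfkb2, which was not called and is not shown, holds 3 matches in its 100 bases, more than any of the 4. The list was made of NF-kB and inflammatory genes, so a share above that of all genes is set in part by the choice of list.

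Cxcl2, a chemokine for neutrophils, had 61.1, 64.6 and 62.8 CPM at passage 10, then 16.4, 12.1 and 16.1 CPM at passage 15. All passage 15 libraries were lower, with a log2 fold change of -2.06 ± 0.14 (adjusted p = 8.3e-05). Cxcl1, a related chemokine whose kB match has the same letters, had 90.3, 94.8 and 97.0 CPM against 41.7, 40.0 and 47.5 CPM (2.16-fold lower). Nfkbia, the inhibitor IkB alpha, had 143, 142 and 135 CPM against 72.3, 64.6 and 72.3 CPM (1.98-fold lower).

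Il1a, interleukin 1 alpha, had 131, 130 and 121 CPM against 27.5, 31.9 and 33.3 CPM, a log2 fold change of -2.02 ± 0.11 (adjusted p = 2.35e-05). Ccl20, a chemokine for lymphocytes and dendritic cells, named after its values were seen, had 149, 140 and 144 CPM against 51.6, 30.9 and 42.5 CPM. It fell by 1.78 ± 0.18, and by 2.21 in replicate 2 alone. Lcn2, the gene that rose, increased by 0.89 and was called in 1 of the 4 smaller fits. Icam1, Relb and Nfkb2 were not called, at -0.06, 0.25 and 0.09.

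Of 14 tested interferon response genes 6 fell and 2 rose, against 14.2% and 14.4% of all genes, with a median of -0.37. In the 4 smaller fits 2 or 3 fell and none rose. Oasl2, an interferon-induced protein, had 6.89, 5.02 and 5.86 CPM against 1.37, 1.83 and 1.36 CPM (3.84-fold lower). Stat2, a transducer of the interferon signal, fell 1.63-fold. Irf1 fell by 0.48 ± 0.10 and Usp18 by 2.01 ± 0.43. Irf1 had adjusted p of 0.0684, 0.0679 and 0.0660 without passage 10 replicate 1, passage 10 replicate 2 and passage 15 replicate 3. Usp18 had 0.0673, 0.0609 and 0.0670 without passage 10 replicate 1, passage 10 replicate 3 and passage 15 replicate 3. In antigen presentation 1 of 8 rose (Tap1, a peptide transporter, by 0.65 ± 0.11) and 1 fell (Psmb8, an immunoproteasome subunit, by 1.36 ± 0.21). B2m was 127, 124 and 133 CPM against 203, 138 and 168 CPM and was not called.

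Cell cycle genes rose by a small factor. Of 23 tested proliferation genes 18 rose, against 14.4% of all genes, and none fell. All 18 calls held and the median log2 fold change was 0.55, and 0.41 in replicate 2 alone. There were 7 to 9 in the 4 smaller fits. In replicate 2 alone 22 of the 23 rose, against 21.3% of all genes. Without passage 15 replicate 2, 18 rose and 2 fell. With median ratio scaling 17 rose.

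Genes of DNA replication were among them. Mcm5, a subunit of the replicative helicase, had 85.9, 85.5 and 88.7 CPM against 153, 139 and 145 CPM (1.70-fold, adjusted p = 0.000979). Mcm3, another subunit, had 94.2, 104 and 98.4 CPM against 169, 152 and 159 CPM (1.64-fold). Rrm2, a subunit of ribonucleotide reductase, rose by 0.59 on the log2 scale and Aurka, a mitotic kinase, by 0.71. The 5 genes not called were Mki67 (-0.13), Top2a (0.12), Bub1b (0.26), Plk1 (0.01) and Cenpf (-0.21), given after their values were seen. In replicate 2 alone Mki67 was at 0.29 and Cenpf at 0.32.

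Of 12 genes of cell cycle inhibition and senescence 4 rose and 1 fell, against 14.4% and 14.2% of all genes. The counts were the same in each of the 4 smaller fits. Hmga2, a chromatin protein of fetal and proliferating cells, had 13.5, 15.6 and 16.5 CPM against 32.0, 36.9 and 37.9 CPM (2.37-fold). Hmga1, its relative, rose 2.28-fold. Lmnb1, a lamin that is lost in senescent cells, had 97.0, 98.2 and 105 CPM against 172, 176 and 184 CPM (1.79-fold). Trp53, the p53 gene, rose by 0.56 ± 0.09. Inhibitor genes Cdkn2a (0.49), Cdkn2b (0.33) and Cdkn1a (0.21) were not called. Rb1, which fell by 0.87, is named after its values were seen.

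Of 21 p53 target genes 9 rose and 3 fell, against 14.4% and 14.2% of all genes. Only 3 to 5 rose and 1 fell in the 4 smaller fits, and with library totals alone 12 rose and 1 fell. Gdf15, a stress-induced cytokine, had 7.55, 7.18 and 7.76 CPM against 16.1, 13.6 and 16.0 CPM (2.05-fold). Phlda3, an inhibitor of AKT, rose by 1.14 on the log2 scale. Plk2, a kinase, rose 1.44-fold. Btg2, an antiproliferative factor, had 470, 462 and 468 CPM against 223, 229 and 232 CPM (2.02-fold lower).

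Ribosomal protein genes were called higher, but the size differed between libraries. Of 24 cytosolic ribosomal protein genes 20 rose, against 14.4% of all genes, and none fell. Their median was 0.78, and 0.32 in replicate 2 alone, and none was called in any of the 4 smaller fits. Rps14 had 477, 479 and 501 CPM at passage 10, then 1304, 660 and 851 CPM at passage 15. Replicate 2 was the lowest of the 3 passage 15 libraries and still above passage 10 (log2 fold change 0.97 ± 0.24, adjusted p 0.0649 to 0.0898 in the 4 smaller fits). Rps2, Rps18 and Rps6 rose by 0.86, 0.86 and 0.75 with all libraries and had adjusted p of 0.0541 to 0.0970 in the 4 smaller fits. With the length trend removed the median was 0.59. The median exonic length of the list was 2233 bases, and genes of 2 to 4 kb had medians of 0.25 in replicate 1 and 0.14 in replicate 3.

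None of 19 nuclear genes of oxidative phosphorylation was called by edgeR (3 had an unadjusted p under 0.05). DESeq2 called 2 higher, against 2360 of 13908 genes, and limma-voom with sample weights 16, against 4900 of 13908. With library totals alone 2 were called higher, against 2796 of 13908 genes. Without passage 15 replicate 2, 14 were called higher, against 3608 of 14236 genes. The median of the 19 was 0.31, but 0.02 in replicate 2 alone. Cox4i1, a subunit of cytochrome oxidase, had 223, 210 and 214 CPM against 416, 224 and 279 CPM, and Ndufv2, of complex I, 112, 109 and 103 CPM against 193, 107 and 142 CPM. Of 13 mitochondrially encoded mRNAs 1 fell and 1 rose, against 14.2% and 14.4% of all genes. With the length trend removed 6 fell and none rose, against 2605 and 2523 of 13908 genes. The median of the 13 was -0.11, -0.23 in replicate 2 alone and -0.40 with the length trend removed. Their summed level went from 47420 to 47990 CPM at passage 10 to 35310 to 40280 CPM at passage 15. Of the 13, mt-Co1 fell by 0.48 ± 0.12 and mt-Co3 rose by 0.51 ± 0.10. The call of mt-Co3 did not hold with the length trend removed. Adjusted p was 0.0796 to 0.112 for mt-Co1 in the 4 smaller fits, and 0.0573 to 0.0716 for mt-Co3 without a passage 10 library.

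In low oxygen the HIF factors bind hypoxia response elements with the core ACGTG. Of 22 tested hypoxia and glycolysis genes 11 fell, against 14.2% of all genes, and none rose. All 11 calls held, and 9 fell in each of the 4 smaller fits. The median log2 fold change of the 22 was -0.33, and -0.45 in replicate 2 alone. Without passage 15 replicate 2, 12 fell and 1 rose. Bnip3, a mitophagy receptor, had 90.0, 88.3 and 90.6 CPM against 42.7, 43.7 and 45.0 CPM (2.02-fold lower, adjusted p = 0.000193). Vegfa, the vascular growth factor, had 112, 114 and 112 CPM against 51.3, 57.6 and 60.6 CPM (1.97-fold lower). Ndrg1 fell 1.89-fold and Egln3, an oxygen-sensing hydroxylase, 1.66-fold. The 11 not called include Aldoa (0.07), Gapdh (0.19), Ldha (-0.11), Pgk1 (-0.29), Eno1 (0.30) and Pkm (0.21).

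The letters ACGTG, on either strand, occurred in the promoter windows of 9 of 10 genes that fell and of 7 of 11 that did not, and of 18.5% of all genes. Over windows the shares were 76.9%, 47.1% and 16.6%. The list was made of hypoxia and glycolysis genes, so a share above that of all genes is set in part by the choice of list. Neighbouring matches may overlap, since CACGTG holds the core on both strands. The 100 bases before the start of Hk2 and Ero1a, which fell, and Ldha, which was not called, are shown with matches in capitals (GRCm38.p6, RefSeq).
Hk2, chr6:82774455-82774554, minus strand: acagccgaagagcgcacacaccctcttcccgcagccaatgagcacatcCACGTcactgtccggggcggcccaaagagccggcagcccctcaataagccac
Ero1a, chr14:45318573-45318672, minus strand: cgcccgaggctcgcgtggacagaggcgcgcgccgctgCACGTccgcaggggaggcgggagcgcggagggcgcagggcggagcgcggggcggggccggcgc
Ldha, chr7:46845704-46845803, plus strand: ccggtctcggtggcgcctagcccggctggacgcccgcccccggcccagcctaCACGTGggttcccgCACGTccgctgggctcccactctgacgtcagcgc
Hk2, a hexokinase, had 211, 204 and 215 CPM against 100, 138 and 117 CPM (log2 fold change -0.81 ± 0.12). Ero1a, an oxidase of the endoplasmic reticulum, had 753, 788 and 769 CPM against 247, 381 and 334 CPM (-1.25 ± 0.16). These 3 genes were chosen for display after their values were seen. Ldha holds more matches in the bases shown than Hk2 or Ero1a.

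In the integrated stress response, the ATF4-driven reply to amino acid shortage and other stress, 7 of 18 genes rose and 2 fell. The shares of all genes were 14.4% and 14.2%. In the 4 smaller fits 3 or 4 rose and at most 1 fell. Asns, asparagine synthetase, had 148, 137 and 142 CPM against 319, 241 and 266 CPM (1.96-fold). Phgdh, the first enzyme of serine synthesis, rose 1.88-fold and Shmt2, of mitochondrial one-carbon metabolism, 1.63-fold. Sesn2 rose by 0.45 ± 0.09, with adjusted p of 0.0641 to 0.0678 without a passage 10 library. Trib3 (0.21), Chac1 (-0.07) and Atf4 itself (-0.04) were not called.

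Of 18 genes of the unfolded protein response 4 fell, against 14.2% of all genes, and none rose. In the 4 smaller fits 1 or 2 fell. With the length trend removed 6 fell and 1 rose, against 2605 and 2523 of 13908 genes. The median log2 fold change of the 18 was -0.04, and -0.12 in replicate 2 alone. Herpud1, of the degradation machinery of the endoplasmic reticulum, had 176, 168 and 169 CPM against 112, 103 and 113 CPM (1.55-fold lower). Dnajb9, Dnajc3 and Edem1 fell by 0.63, 0.45 and 0.44. In the 4 smaller fits adjusted p was 0.0594 to 0.0739 for Dnajc3 and 0.0763 to 0.0940 for Edem1. It was 0.0586 to 0.0772 for Dnajb9 without a passage 10 library. Hspa5, the chaperone BiP, was not called (0.11). Among 16 immediate early and heat shock genes 4 rose and 3 fell, against 14.4% and 14.2% of all genes. In the 4 smaller fits 1 or 2 rose and 2 or 3 fell. Hspb1, a small heat shock protein, had 0.480, 0.913 and 0.264 CPM against 5.61, 3.12 and 3.76 CPM (7.72-fold), and Klf4, a factor of differentiated epithelium, fell 1.69-fold. Hspa1a fell 3.20-fold, but Hspa1b, its near-identical copy, was not called (-0.22), and reads may be split between them. Jun fell by 0.42 ± 0.09, with adjusted p of 0.0744, 0.0665 and 0.0591 without passage 10 replicate 1, passage 10 replicate 2 and passage 15 replicate 3.

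Gpx4, the selenoenzyme that reduces lipid peroxides in membranes and the gene targeted in the knockout, did not pass the test. It had 112, 125 and 116 CPM at passage 10, then 196, 104 and 127 CPM at passage 15. Replicate 1 was the highest and replicate 2 below all 3 passage 10 libraries. The log2 fold change was 0.29 ± 0.22 (adjusted p = 0.333), and -0.17 in replicate 2 alone (adjusted p = 0.00388).

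Of 22 genes of ferroptosis defence 2 rose and 4 fell, against 14.4% and 14.2% of all genes. None rose and 2 fell in each of the 4 smaller fits. Gclc, the catalytic subunit of glutathione synthesis, had 777, 767 and 756 CPM against 376, 529 and 484 CPM (1.64-fold lower), while Gclm, its partner, had 159, 155 and 164 CPM against 194, 194 and 196 CPM (1.24-fold higher). Mboat2, an enzyme of phospholipid remodelling, fell 1.83-fold. Slc3a2, a chain of the cystine transporter, rose by 0.45 ± 0.13, and its partner Slc7a11 was not called (-0.15). In the 4 smaller fits adjusted p was 0.105 to 0.145 for Gclm and 0.112 to 0.133 for Slc3a2.

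Of 13 genes that drive or mark ferroptosis 4 fell and 1 rose, against 14.2% and 14.4% of all genes. In each of the 4 smaller fits 2 fell and 1 rose. Nox1, an oxidase that makes superoxide, had 11.7, 14.2 and 12.9 CPM against 1.51, 2.65 and 2.03 CPM (6.11-fold lower, adjusted p = 0.000185). Sat1, of polyamine catabolism, fell 1.69-fold. Ncoa4, the receptor for ferritin breakdown, had 200, 198 and 203 CPM against 56.9, 125 and 96.5 CPM. It was 2.14-fold lower with all libraries, and adjusted p was 0.0626 to 0.0702 in the 4 smaller fits. Slc11a2 (-0.34) is named after its values were seen. Acsl4, which loads oxidizable fatty acids, was not called (-0.21).

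Of 25 NRF2 targets 3 rose and 5 fell, against 14.4% and 14.2% of all genes. The median log2 fold change of the 25 was 0.08, and -0.01 in replicate 2 alone. Gstm2, a glutathione transferase with close relatives, had 10.3, 8.68 and 9.45 CPM against 48.2, 32.3 and 40.3 CPM (4.29-fold). Hmox1, heme oxygenase, rose 1.61-fold. Nqo1, a quinone reductase, had 40.4, 39.1 and 43.0 CPM against 21.1, 18.6 and 16.9 CPM (2.14-fold lower). Ugdh fell 1.47-fold and Me1 by 0.46 ± 0.09. Me1 had adjusted p of 0.0506 and 0.0590 without passage 10 replicate 2 and 3. Txnrd1 (-0.10) and Srxn1 (-0.07) were not called.

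In glutathione metabolism 2 of 21 rose and 6 fell, against 14.4% and 14.2% of all genes. In the 4 smaller fits 1 rose and 3 or 4 fell. Anpep, a peptidase that acts on glutathione breakdown products, had 4.02, 3.00 and 3.17 CPM against 0.288, 0.236 and 0.123 CPM (15.3-fold lower). Mgst2, a microsomal glutathione transferase, fell 2.87-fold. Gpx2, the glutathione peroxidase of gut epithelium, had 821, 830 and 796 CPM against 2425, 1429 and 1780 CPM (2.33-fold). Among 20 selenoprotein genes 3 rose and 2 fell, against 14.4% and 14.2% of all genes. In the 4 smaller fits 2 rose and 1 or 2 fell. Selenop, the selenium carrier, had 240, 239 and 244 CPM against 61.1, 55.4 and 58.3 CPM (4.09-fold lower, adjusted p = 1.39e-05). Selenon rose 1.69-fold. Gpx3 fell by 1.48 ± 0.33, with adjusted p of 0.0719, 0.0609 and 0.0758 without passage 10 replicate 1, passage 10 replicate 2 and passage 15 replicate 3.

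Most lipid genes were not called with all 6 libraries. Of 21 cholesterol synthesis genes 4 fell, against 14.2% of all genes, 3 of the calls held, and none was called in the 4 smaller fits. Among them were Lss, Sc5d and Hsd17b7, with log2 fold changes of -0.42, -0.36 and -0.64, and adjusted p of 0.0650 to 0.147 in the 4 smaller fits. With library totals alone 2 fell and 1 rose, and without passage 15 replicate 2, 9 fell and 3 rose. In replicate 2 alone 14 of the 21 fell, against 22.2% of all genes, with a median log2 fold change of -0.18. Of 12 fatty acid synthesis genes, Fads1 and Fads2, the desaturases of polyunsaturated fatty acids, rose by 0.39 and 0.31, with adjusted p of 0.0689 to 0.169 in the 4 smaller fits, and Me1 fell. The median log2 fold change of the 12 was -0.04, and 0.07 in replicate 2 alone. Of 14 genes of fatty acid oxidation and PPAR targets 3 fell, against 14.2% of all genes, and 2 in each of the 4 smaller fits. With the length trend removed 5 of the 14 fell. Their median log2 fold change was -0.11, and -0.23 in replicate 2 alone. Ehhadh, a peroxisomal enzyme, had 24.4, 23.9 and 25.5 CPM against 6.04, 7.19 and 6.03 CPM (3.78-fold lower). Cpt1a, which commits fatty acids to mitochondrial oxidation, fell by 0.38 ± 0.10 on the log2 scale (adjusted p of 0.109 to 0.124 in the 4 smaller fits). Lysosomal genes had 3 of 17 higher and 1 lower, against 14.4% and 14.2% of all genes, and 1 higher in each of the 4 smaller fits. Glb1, Npc2 and Hexa had log2 fold changes of 0.40, 0.62 and -0.56, with adjusted p of 0.0851 to 0.126 in the 4 smaller fits.

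Of 13 tested imprinted genes 3 rose and 2 fell, against 14.4% and 14.2% of all genes. In each of the 4 smaller fits 3 rose and 1 fell. Beside Ndn, Snrpn, its neighbour in the same imprinted domain, had 4.44, 4.50 and 5.02 CPM against 13.0, 9.84 and 10.5 CPM (2.41-fold). H19, a noncoding RNA, was at 0, 0 and 0.106 CPM and then 0.648, 0.884 and 0.739 CPM. Kcnq1ot1, a long noncoding RNA antisense to Kcnq1, fell by 0.92 ± 0.16 with all libraries but had a log2 fold change of 0.01 with the length trend removed. Its overlap with Kcnq1 also makes its count uncertain. Nnat (-1.55) is named after its values were seen.

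**Figure D4:**
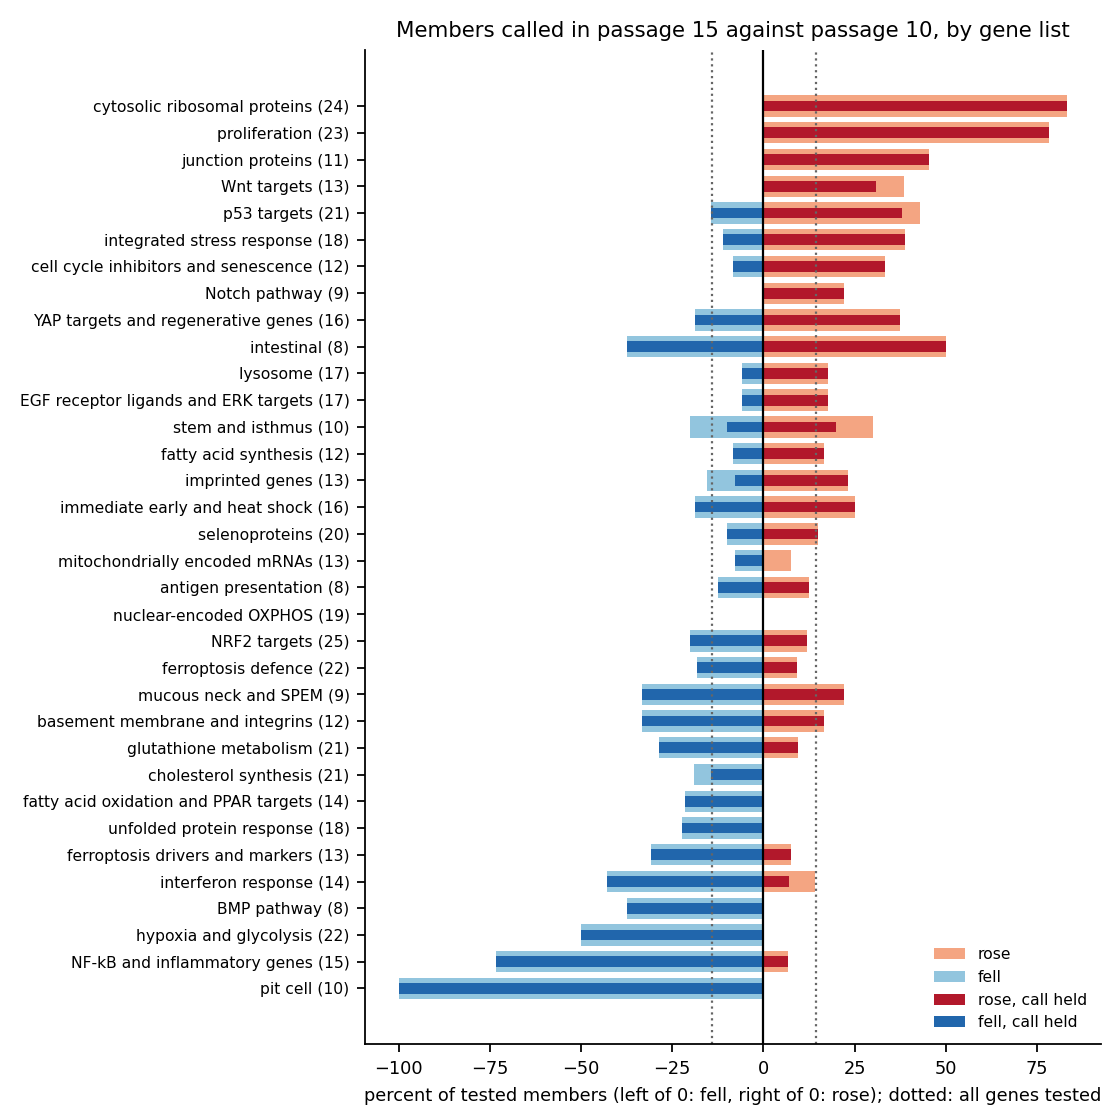
Percent of tested members of each gene list that rose (right of 0) or fell (left of 0) at passage 15, with the number tested in brackets; pale bars are all calls, dark bars the calls that held, and dotted lines the 14.4% and 14.2% of all genes tested. Pit cell genes lie at the lower end with all 10 falling, and ribosomal protein and proliferation genes at the upper end.

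The organoids labelled Gpx4 KO changed over the same passages in other ways. Their Gpx4 level was 101, 97.5 and 88.1 CPM at passage 10, then 86.8, 83.1 and 87.8 CPM at passage 15, all below the wild-type libraries of the same passage but not near 0. The table counts whole genes, and reads outside the deleted part check nothing. In these organoids 5295 of 13898 genes were called between passages 10 and 15 (38.1%, both directions together). The interaction of genotype with passage was called for 5397 of 14580 genes (37.0%), 2792 higher in wild type and 2605 lower. List counts below are to be read against these numbers. For the organoids labelled Gpx4 KO, the shares of all genes that rose and that fell are not given separately. Counts of list members that rose or fell in these organoids therefore have no background of the same direction and are a description. Of 1919 genes called in both genotypes, 543 changed in the same direction and 1376 in opposite directions. The interaction was called for all 1376, which that choice of genes makes nearly certain.

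Pit cell genes differed in direction. In the organoids labelled Gpx4 KO 8 of 10 rose and 1 fell, with a median of 0.71 against -1.97 in wild type. The interaction was called lower in wild type for all 10, against 2605 of 14580 genes. Muc5ac went from a mean of 188 to 654 CPM there, with an interaction of -5.09 ± 0.19 on the log2 scale (adjusted p = 1.9e-09). Bhlha15 went from 5.80 to 11.2 CPM there, with an interaction of -2.30 ± 0.18.

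Proliferation genes also differed. There 1 of 23 rose and 14 fell, with a median of -0.11. The interaction was called higher in wild type for 18, against 2792 of 14580 genes. Of 15 NF-kB and inflammatory genes, 9 had an interaction called lower in wild type and 2 higher, against 2605 and 2792 of 14580 genes. Cxcl1 went from 51.4 to 84.2 CPM in the organoids labelled Gpx4 KO and Il1a from 99.95 to 43.0 CPM, the latter lower at passage 15 in both genotypes. For 16 YAP and regenerative genes the counts in the organoids labelled Gpx4 KO were 1 higher and 12 lower. The interaction was called higher in wild type for 12, against 2792 of 14580 genes. Hypoxia and glycolysis genes had 14 of 22 lower and 4 higher in the organoids labelled Gpx4 KO. The interaction was called lower in wild type for 10 and higher for 1, against 2605 and 2792 of 14580 genes.

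Olfm4 fell in both genotypes. It went from a mean of 28.7 to 0.704 CPM in the organoids labelled Gpx4 KO, and the interaction was not called (0.35 ± 0.26, adjusted p = 0.376). Cdx2 was at means of 0.111 and 0.0385 CPM there, against 1.19 and 32.0 CPM in wild type. Of the 24 genes with the strongest changes the interaction was called for 21. In the organoids labelled Gpx4 KO 3 of the 24 changed in the same direction as in wild type (Lipo3, Zfp987 and Spock2), 10 in the opposite direction, and 8 had too few counts to be tested. Gata6 was not called there, with means of 22.1 and 21.2 CPM (log2 fold change -0.05, adjusted p = 0.641).

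**Figure D5:**
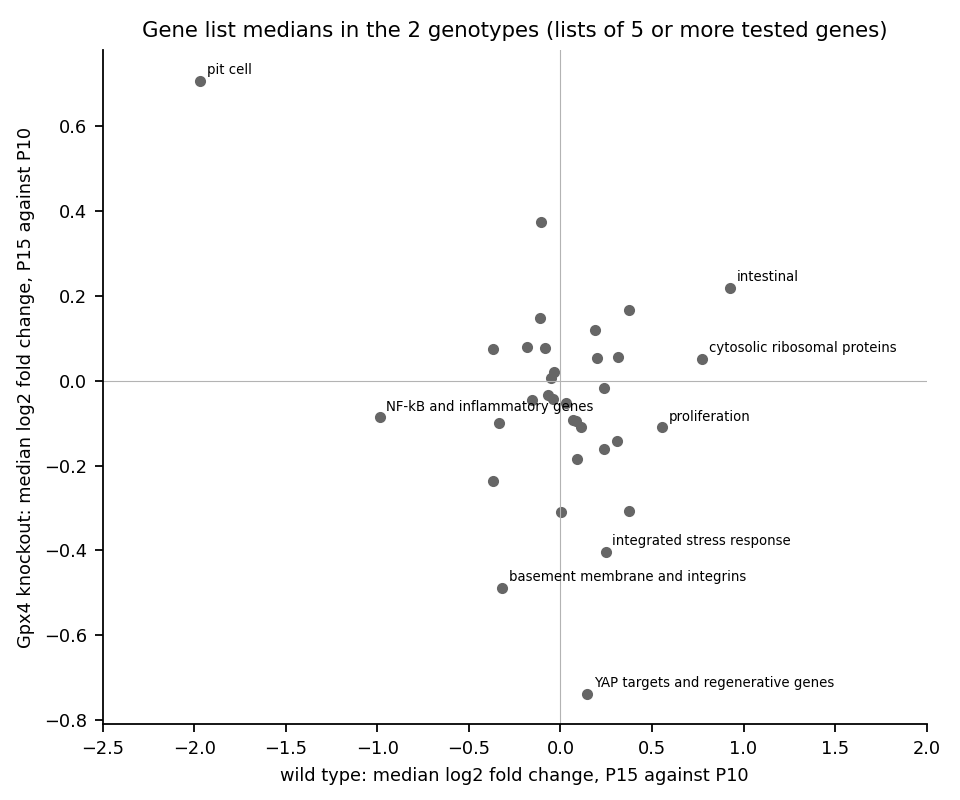
Median log2 fold change of passage 15 over passage 10 for each gene list of 5 or more tested genes, in wild type (horizontal axis) and in organoids labelled Gpx4 KO (vertical axis), 1 point per list. The pit cell list lies at -1.97 and 0.71, and the proliferation list at 0.55 and -0.11.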

How the data were processed

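RNA of 21 organoid libraries was counted in 1 deposited table, and the 6 wild-type libraries of passages 10 and 15 were compared. The deposited table holds raw read counts per gene and the FPKM the authors computed from them. The counts gave back 100% of those FPKM to within 0.006. Per the submitters' processing notes, cutadapt 1.9.1, HISAT2 2.2.1, HTSeq 0.6.1 and GRCm38.p5 were used. The strand setting is not given in the sources used here. The table's own coordinates matched GENCODE M21 for 1435 of 52073 shared identifiers, so positions were taken from GENCODE M21 by identifier. The 6 sorted-cell libraries are not analysed here.

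Counts were tested in edgeR 4.0.16 (R 4.3.3) by quasi-likelihood on genes kept by filterByExpr (minimum count 10, minimum total 15; 13908 of 56691), with TMM scaling. The 6 libraries were fitted alone because the spread at passage 15 is far above that of the other groups, and a spread shared over 21 libraries would be too small for them. The interaction used 12 libraries. The biological coefficient of variation was 20.8% in wild type at passage 15 and 1.88% to 3.08% in the other groups of that fit. The interaction p-values share 1 spread over the 12 libraries, so they may be too small and the interaction counts too high. Each SE was derived from the fitted difference and its F statistic. The length trend was removed with a loess per library (span 0.4, prior count 2). The scripts were tested on simulated data. DESeq2 1.42.0 and limma 3.58.1 were alternatives.

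Genes at 0 counts in a group are compared with a floor set at 3 counts summed over its libraries, and those with 1 to 3 counts as a ratio with its 95% exact interval, both for counting error only. The members and the 43 gene lists (606 distinct genes, all matched, 1 by an older symbol) were chosen with earlier results of these data known. Named are Gpx4, Bhlha15, 12 protein-coding genes of each direction ranked by the smaller of the fitted and the replicate 2 difference, up to 4 called genes at 0 counts per direction, and up to 4 members per list by adjusted p. Promoters are from RefSeq.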

Additional observations from a re-analysis of the deposited data

Results flagged for a closer look

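The change from passage 10 to passage 15 differed between wild type and the organoids labelled Gpx4 KO for 21 of the 24 genes with the strongest changes and for Bhlha15, by the interaction term in edgeR (quasi-likelihood, adjusted over 14580 genes). Values are wild type minus knockout, on the log2 scale. Where a group has 0 or few counts (Ndn, Il5ra, B4galt4, Cdh17, Lipo3, Zfp987, Irx5 and Tfap2a) the fitted value depends on the prior count and is no bound. Interactions were positive for Ndn (10.73), Krt4 (7.30), Il5ra (6.63), Col4a2 (8.06), Evc (6.32), B4galt4 (6.29), Cdh17 (8.12), Col4a1 (7.10), Mgat4c (5.23) and Ereg (9.82). They were negative for Enpp3 (-9.82), Lipo3 (-7.92), Zfp987 (-7.84), Irx5 (-10.97), H2-Q10 (-7.09), Tfap2a (-8.11), Plbd1 (-7.18), Gata6 (-5.61), Spock2 (-4.94), Trim35 (-5.66), Slc28a3 (-5.17) and Bhlha15 (-2.30). The genes were chosen by their change in wild type, so the sign of the interaction is in part set by that choice.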

How the results depend on the processing

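Against 3972 (2002 higher, 1970 lower), replicate 2 as the only passage 15 library gave 6487 (3180 and 3307), all 21 libraries in 1 fit 8196 (3982 and 4214), and limma-voom with sample weights 9720 (4900 and 4820). Leaving out 1 library gave 1574 to 7249 calls, 596 to 3608 higher, 959 to 3641 lower, and 987 to 2086 at 2-fold or more. At a mean FPKM of at least 1, 788 genes changed by 2-fold or more, against 1323. The other settings kept these counts within 1.5 times, and the interaction count stayed at 4398 to 7858 over its alternatives. Library totals alone gave 63.5% of calls higher. Gpx4 had a log2 fold change of -0.165 with replicate 2 alone, and -0.00418 to 0.479 when 1 library was left out (lowest without passage 15 replicate 1, highest without replicate 2), and Kcnq1ot1 0.00846 with the length trend removed. No other direction of the 172 genes named by rule reversed. Of the 503 tested list members 82 had the opposite sign in replicate 2 alone, none of them called with all libraries; they include Mki67, Cenpf, Slc7a11, Aldoa, Trib3 and Cdkn2a. Of 151 called named genes 40 lost the call when some 1 library was left out. Deviations of same-numbered libraries correlated at 0.0216, -0.0589 and 0.0154. Passage 10 libraries barely differed (biological coefficient of variation 2.28%), and those of passage 15 differed by gene length. These values therefore cannot show whether same-numbered libraries are paired. A replicate block gave 3330 calls for the passages and 5210 for the interaction.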
